A study of Mus musculus with 34 samples.

Results

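Collagens form triple helices of 3 chains, each chain the product of its own gene, and they are the main structural proteins of the extracellular matrix. Fibrillar collagens (types I, III, V, XI and others) build the tensile fibers of the heart interstitium and of scar, type IV collagen forms the sheet-like network of basement membranes around vessels and cardiomyocytes, and the remaining types form microfilaments, decorate fibers or attach cells. Collagen genes were taken as all rows whose gene symbol follows the pattern Col, a number, a, a number. This gave 35 of the 14552 genes in the table of the 10 uninjected left ventricles (LV) and 43 of the 17406 genes in the table of the 24 libraries of the modRNA experiment. Of these, 26 per table reached a mean of 1 CPM (the read count scaled to library size) and were tested, and these were the same 26 genes. They comprised 8 fibrillar, 6 type IV and 12 other collagens.

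All hearts came from CFW (Swiss Webster) mice, and myocardial infarction (MI) was made by tying off the left anterior descending artery for good. In the first table, uninjected hearts were collected 4 h post-MI (n = 3) and 24 h post-MI (n = 4) from the ischemic area and compared to the equivalent area of sham hearts (n = 3), which the study calls sham operated and the labels mark as without operation. In the second table, Luc modRNA (chemically modified mRNA for luciferase, the control) or AC modRNA (a name the labels do not expand) was injected at the border of the infarct directly after ligation. Hearts given Luc were collected at 4 h (n = 4), 24 h (n = 3) and 48 h (n = 4), hearts given AC at 4 h (n = 4), 24 h (n = 3) and 48 h (n = 4), and the sham-operated, uninjected hearts (n = 2) are labelled 4 h. Swiss Webster mice are outbred, and age and sex are not given in the sources used here. For the second table no source says that each library is a separate mouse, so its p-values measure the spread between libraries.

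In the first table the reads assigned to listed genes were estimated at 12553519 to 18952669 per library, taking the lowest CPM value as 1 read. This is not the sequencing depth, for which the study states a higher mean per sample. For the second table the depth is unknown. Heart muscle genes were abundant: the 7 cardiomyocyte markers, which do not tell LV from other heart muscle, summed to 45489 to 48465 CPM in the first sham hearts and to 49287 and 49882 CPM in the second, and the atrial markers are given beside the results they moved with. Library G of the 24 h MI group lay nearer to sham than the others, with a correlation across tested genes of 0.884 to 0.90 against 0.836 at most. Among the Luc 48 h libraries, 1 and 3 resembled each other (0.984), as did 2 and 4 (0.984), whereas across these pairs the correlation was 0.945 to 0.969. In the second table sham and 4 h libraries share a numbering series, 48 h libraries have another and 24 h libraries have none, so library series and time cannot be told apart, while AC and Luc are matched within each time. Only the 24 h titles of that table carry the letters Br, and what they mark was not established. The tables were normalized separately and are never combined below. In whole tissue, fewer cells of a type and less RNA per cell cannot be told apart.

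In sham hearts 2 type IV chains were the most expressed collagen genes per length. In the first table, Col4a1 and Col4a2, which encode the chains of the ubiquitous basement membrane network, reached 49.3 ± 13.4 and 39.2 ± 9.30 CPM per kb of exon (SD, n = 3). Col3a1, the chain of type III collagen, followed at 22.6 ± 5.11 CPM per kb, and Col15a1, a basement membrane-linked multiplexin, at 20.1 ± 0.920. Col6a1 (microfibrillar type VI) stood at 18.0 ± 1.82 CPM per kb, the type I chain Col1a1 at 10.7 ± 1.39, Col6a2 at 9.28 ± 0.766 and the type I chain Col1a2 at 7.55 ± 0.853. Neighbors in this order overlapped within their SDs except for Col4a2 against Col3a1, Col6a1 against Col1a1, and Col6a2 against Col1a2. All collagens together took 0.222 to 0.292% of the summed CPM in sham, 0.339 to 0.477% at 4 h and 0.249 to 0.399% at 24 h post-MI, so the 4 h hearts lay above all sham hearts. The 9 collagen genes of this table that were not tested had means of 0.215 to 0.711 CPM.

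To see how collagen expression responds in the first hours, uninjected hearts 4 h post-MI were compared to sham. None of the 26 collagens passed an adjusted p of 0.05 (limma, Benjamini-Hochberg over all genes), although 24 had higher group means on the log2 scale and the median log2 fold change was 0.51, against -0.03 for all genes tested. Of all genes, 1.55% were called higher and 0.817% lower at 4 h. In 13 of the 26, and in 10.9% of all genes, every MI library lay above every sham library, and 11 of the 26 had an unadjusted p under 0.05. The share of all genes under that unadjusted p was not counted. Col3a1 measured 278, 181 and 207 CPM in sham and 444, 323 and 353 CPM at 4 h, without overlap. Its log2 fold change was 0.76 ± 0.29 (SE, adjusted p = 0.23). Col1a1 reached 127, 93.6 and 95.9 CPM at 4 h and Col1a2 173, 120 and 140 CPM, both above all sham hearts, whose values are given with the 24 h comparison. Of the type IV chains, Col4a1 reached 731, 497 and 563 CPM, above all sham hearts, while Col4a2 (434, 327 and 347 CPM) and Col4a5 (72.8, 53.3 and 52.8 CPM) overlapped with sham. Col6a1 (131, 111 and 114 CPM), Col6a2 (126, 97.5 and 107 CPM) and Col15a1 (214, 157 and 171 CPM) were again above sham in every library. The class medians were close, 0.67 for fibrillar, 0.52 for type IV and 0.46 for other collagens. The call depends on the fit: with the sham and 4 h libraries alone 9 collagens were called higher, and with library weights 17 were. These 9 were Col1a1, Col1a2, Col3a1, Col5a1, Col6a1, Col6a2, Col6a3, Col15a1 and Col16a1, with adjusted p of 0.014 to 0.045 in that fit. How many of all genes were called in these alternative fits was not counted, so the higher collagen counts have no background share. Beside these values, the 7 fibroblast markers summed to 804 to 934 CPM at 4 h against 644 to 673 CPM in sham, with none called, and the 5 erythroid markers to 435 to 751 against 161 to 247 CPM, with 4 called higher. The 8 neutrophil and monocyte markers summed to 13.9 to 39.4 against 7.94 to 9.31 CPM and the 7 cardiomyocyte markers to 44333 to 47930 against 45489 to 48465 CPM, with none called in either list. Their part in the collagen values was not tested.

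At 24 h post-MI 7 collagens rose and 9 fell compared to sham, against 35.6% of all genes called higher and 30.3% lower. As shares, 26.9% of the 26 rose and 34.6% fell, close to those backgrounds, and their median log2 fold change of -0.01 was near the 0.04 of all genes. The counts by class are small and were not tested against these shares. Of the 8 fibrillar collagens, 2 rose and none fell; of the 6 type IV chains, 2 rose and 4 fell; of the 12 others, 3 rose and 5 fell.

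**Figure D1:**
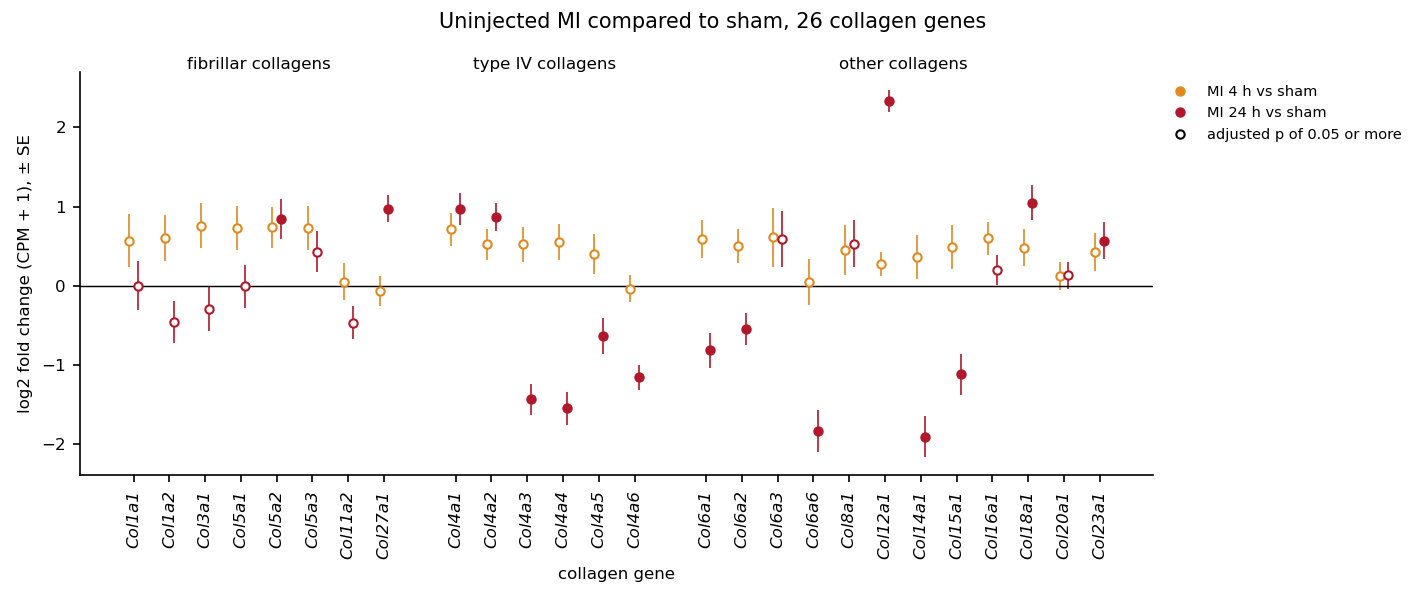
Log2 fold change of CPM + 1 (± SE from limma) for each of the 26 tested collagen genes, grouped by class, in uninjected hearts 4 h (orange) and 24 h (red) post-MI compared to sham. Filled points passed an adjusted p of 0.05. No point is filled at 4 h, where 24 of 26 lie above 0, while at 24 h Col4a1 and Col4a2 lie above 0 and the other 4 type IV chains below.

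All 6 type IV chains were called at 24 h, when 35.6% of all genes were called higher and 30.3% lower. Col4a1 measured 479, 286 and 337.5 CPM in sham and 682, 695, 878 and 590 CPM at 24 h post-MI, and Col4a2 measured 329, 211 and 238.5 CPM in sham and 450, 488, 578.5 and 378 CPM at 24 h. Both genes were higher in every MI library than in any sham library. The rises were 1.93 ± 0.621-fold for Col4a1 (log2 fold change 0.97 ± 0.20, adjusted p = 0.0013) and 1.83 ± 0.540-fold for Col4a2 (0.87 ± 0.18, adjusted p = 0.0013). Col4a3 and Col4a4, chains of the specialized network known from the glomerulus and other thick basement membranes, went the opposite way at far lower levels. Col4a3 measured 5.03, 3.71 and 3.84 CPM in sham and 0.938, 0.876, 1.61 and 0.381 CPM at 24 h. Col4a4 measured 7.74, 4.88 and 5.04 CPM in sham and 1.39, 1.28, 2.09 and 0.685 CPM at 24 h. For both, the lowest sham library was above the highest MI library, and they fell to 0.227 ± 0.127 and 0.232 ± 0.117 of sham (log2 fold changes -1.44 ± 0.20 and -1.55 ± 0.21, adjusted p = 8.7e-05 and 7e-05).

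The remaining pair, Col4a5 and Col4a6, also fell. Col4a5, the partner of the Col4a3 and Col4a4 chains, measured 55.7, 44.5 and 35.5 CPM in sham and 21.3, 23.4, 43.8 and 28.4 CPM at 24 h, with library G of the MI group inside the sham range. Its log2 fold change was -0.64 ± 0.23 (adjusted p = 0.029), and the call was lost without sham library D or H or without 24 h library C, D or H. Col4a6, known from smooth muscle basement membranes, went from 2.42, 2.58 and 2.31 CPM to 0.863, 0.219, 0.725 and 0.419 CPM without overlap (-1.16 ± 0.16, adjusted p = 6e-05). Within each library, the Col4a1 to Col4a3 ratio was 77.1 to 95.4 in sham and 545 to 1550 at 24 h, and after median-ratio rescaling of the libraries Col4a1 was still called higher and Col4a3 lower.

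The 6 type IV genes lie as 3 head-to-head pairs, and each pair leaves from nearby starts on opposite strands. By the gene positions given with the deposited values (mouse assembly GRCm38, or mm10), Col4a1 and Col4a2 overlap by 22 bases. Col4a1 spans chromosome 8, 11198423 to 11312826, minus strand, and Col4a2 chromosome 8, 11312805 to 11449287, plus strand. Col4a4 (chromosome 1, 82450723 to 82586849, minus strand) and Col4a3 (chromosome 1, 82586921 to 82722059, plus strand) start 71 bases apart, and Col4a6 and Col4a5 on chromosome X start 1342 bases apart. The methods of the study do not say that the libraries kept the strand, and whether counting used it is not stated in the sources used here. Reads in the overlap of Col4a1 and Col4a2 therefore cannot be assigned with certainty. The Col4a1 to Col4a2 ratio was 1.36 to 1.46 in sham, 1.52 to 1.68 at 4 h and 1.42 to 1.56 at 24 h. The Col4a4 to Col4a3 ratio was 1.31 to 1.54 in sham, 1.25 to 1.58 at 4 h and 1.30 to 1.80 at 24 h. For both pairs the ratios of sham and 24 h overlapped, while the levels did not. At 4 h the Col4a1 to Col4a2 ratio lay above sham. In the modRNA experiment this ratio was 1.24 to 1.26 in sham and 1.41 to 1.71 in Luc 24 h libraries, without overlap. The ratio of the third pair, Col4a5 to Col4a6, was 15.4 to 23.0 in sham and 24.7 to 107 at 24 h in the uninjected hearts, without overlap. The whole stretch between the Col4a3 and Col4a4 starts is shown because both genes were lower at 24 h in the uninjected hearts. In the Luc 24 h hearts neither was called lower than in sham. The part of this stretch in their levels was not tested. It is given from RefSeq (GRCm38.p6, chr1:82586850-82586920, minus strand) and read 5′ to 3′ from the Col4a3 start to the Col4a4 start.
Col4a3-Col4a4 interval: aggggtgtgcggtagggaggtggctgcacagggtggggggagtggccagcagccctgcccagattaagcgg
It is 69.0% G or C, and it holds neither a CCAAT box nor a TATAAA stretch nor a GC box (the letters GGGCGG) on either strand.

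**Figure D2:**
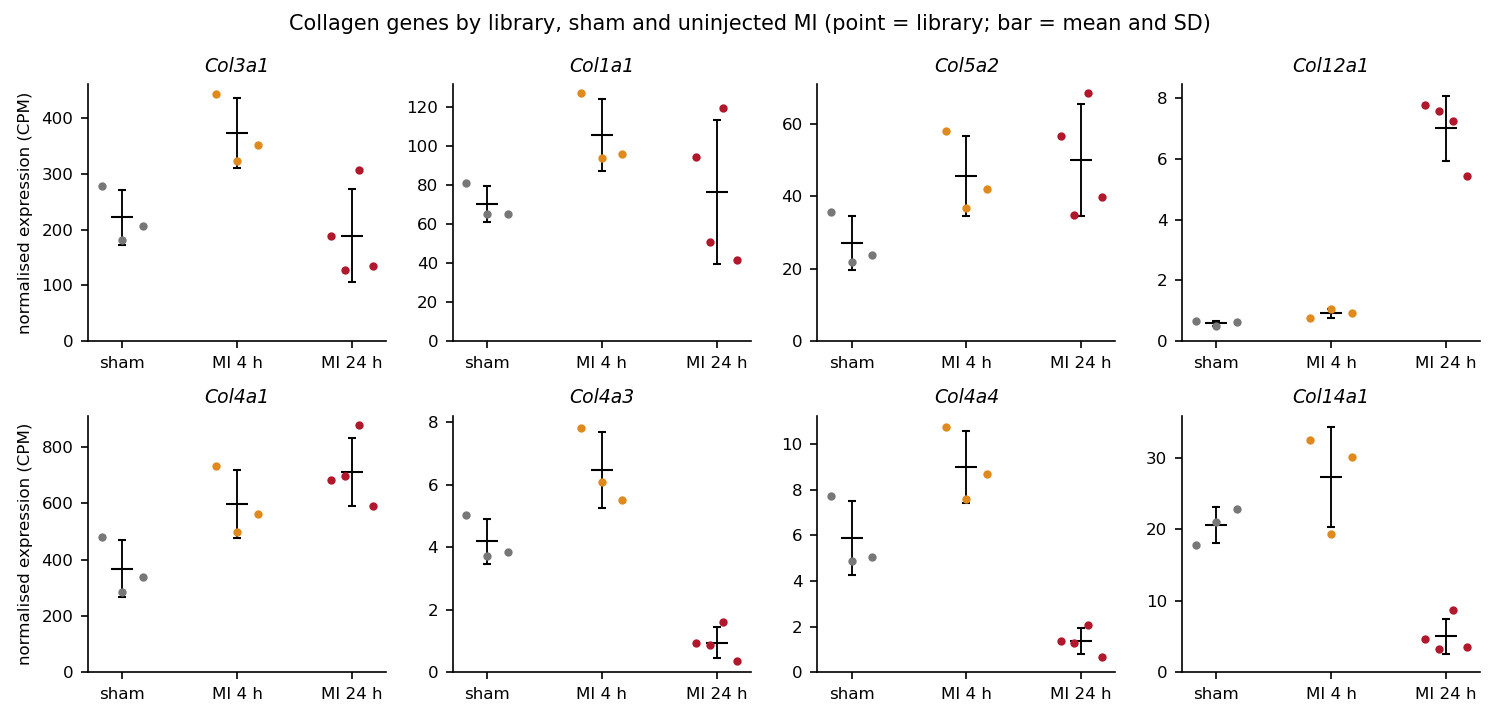
Normalised expression in CPM (vertical axes from 0) of 8 collagen genes in each library of sham, MI 4 h and MI 24 h hearts, with 1 point per library and the mean and SD as bars. Col12a1 is high only at 24 h, Col4a1 is higher at 24 h than in sham, Col4a3, Col4a4 and Col14a1 are lowest at 24 h, and the Col3a1 and Col1a1 points of 24 h and sham overlap.

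Most fibrillar collagens were not called at 24 h. Col1a1 measured 80.8, 65.1 and 64.8 CPM in sham and 94.3, 50.5, 119 and 41.2 CPM at 24 h (log2 fold change -0.00 ± 0.31, adjusted p = 0.99), with sham inside the range of the MI hearts. Col1a2 measured 106, 89.8 and 85.9 CPM in sham and 86.8, 47.3, 109 and 47.1 CPM at 24 h (-0.46 ± 0.27, adjusted p = 0.15). Col3a1 measured 188, 127, 308 and 134 CPM at 24 h (-0.30 ± 0.28, adjusted p = 0.35). For all 3 genes library G was the highest of the MI group, and without it Col1a2 (-0.68, adjusted p = 0.015) and Col3a1 (-0.56, adjusted p = 0.02) were called lower, while Col1a1 (-0.26) was not called. The 2 fibrillar genes that rose were Col5a2, a type V chain that takes part in starting fibers (35.7, 21.9 and 23.7 CPM in sham against 56.7, 34.7, 68.4 and 39.9 CPM, log2 fold change 0.84 ± 0.25, adjusted p = 0.011), and Col27a1. The groups overlapped for Col5a2, which lost its call without sham library H. Col27a1, a fibrillar collagen known from cartilage, measured 3.11, 4.68 and 5.95 CPM in sham and 12.2, 9.07, 8.82 and 8.87 CPM at 24 h without overlap (0.97 ± 0.17, adjusted p = 0.00049). Within libraries the Col1a1 to Col1a2 ratio was 0.725 to 0.763 in sham and 0.876 to 1.10 at 24 h, and the Col5a2 to Col5a1 ratio 0.669 to 0.826 and 1.13 to 1.46, so the partner chains of types I and V shifted against each other in every 24 h library.

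A pair of related genes among the other collagens moved in opposite directions. Col12a1 and Col14a1 both encode fibril-associated collagens that coat the surface of type I fibers. Col12a1 measured 0.651, 0.484 and 0.617 CPM in sham, 0.752, 1.05 and 0.929 CPM at 4 h and 7.77, 7.57, 7.25 and 5.44 CPM at 24 h. It rose 12 ± 2.57-fold at 24 h, the largest rise of the 26 on either scale (log2 fold change 2.33 ± 0.14, adjusted p = 2.9e-07). The added 1 CPM of the log2 scale makes that value smaller than the ratio of means in such low genes. Col12a1 averaged 0.584 CPM in sham and 0.911 CPM at 4 h, so it passed the filter of 1 CPM only through the 24 h libraries. Col14a1 went from 17.8, 21.0 and 22.8 CPM in sham to 4.65, 3.25, 8.66 and 3.62 CPM and fell to 0.246 ± 0.125 of sham (-1.91 ± 0.26, adjusted p = 7.5e-05). The groups did not overlap for either gene, and the Col12a1 to Col14a1 ratio moved from 0.0231 to 0.0365 in sham to 0.837 to 2.33 at 24 h.

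Multiplexins and type VI chains also split. Col18a1, whose fragment is endostatin, rose from 11.4, 6.74 and 9.10 CPM in sham to 26.1, 16.4, 20.4 and 16.3 CPM at 24 h (log2 fold change 1.05 ± 0.22, adjusted p = 0.0014). Its relative Col15a1 fell from 124, 134 and 125 CPM to 65.1, 40.0, 101 and 43.8 CPM (-1.12 ± 0.26, adjusted p = 0.0027). Neither gene overlapped between the groups. Of the type VI chains, Col6a1 (-0.82 ± 0.22, adjusted p = 0.0068), Col6a2 (-0.55 ± 0.20, adjusted p = 0.028) and Col6a6 (-1.84 ± 0.27, adjusted p = 0.00012) fell. Col6a1 measured 86.2, 70.4 and 80.1 CPM in sham and 37.9, 45.9, 71.0 and 30.2 CPM at 24 h, and Col6a2 84.3, 71.8 and 75.8 CPM against 46.0, 54.6, 78.0 and 38.6 CPM, with library G of the 24 h group alone inside the sham range. Col6a6 dropped from 1.77, 4.35 and 5.10 CPM to 0.258, 0.188, 0.524 and 0.0761 CPM without overlap, to 0.0698 ± 0.0604 of sham, the lowest ratio of means among the 26, whereas on the log2(CPM + 1) scale Col14a1 fell furthest. Col6a3, the chain with the largest globular part, had a log2 fold change of 0.59 ± 0.35 (adjusted p = 0.15), and its ratio to Col6a1 was 0.294 to 0.374 in sham and 0.685 to 1.36 at 24 h. The membrane-bound Col23a1 was called higher (0.57 ± 0.23, adjusted p = 0.044) but lost the call without sham library D or H or without 24 h library C or D, and Col6a2 lost it without sham library D or I or without 24 h library C or H.

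Several cell type lists moved with these changes. At 24 h the 7 fibroblast markers summed to 353 to 578 CPM against 644 to 673 CPM in sham, the 6 mural cell markers to 300 to 529 against 892 to 957 CPM, the 7 cardiomyocyte markers to 18773 to 32438 against 45489 to 48465 CPM, and the 8 neutrophil and monocyte markers to 373 to 2050 against 7.94 to 9.31 CPM. The 7 endothelial markers summed to 446 to 659 CPM against 577 to 590 CPM, and the 6 activated fibroblast markers to 323 to 634 against 222 to 366 CPM. Of the listed genes 1 of 7 fibroblast markers rose and 5 fell, 1 of 6 mural markers rose and 3 fell, 4 of 7 cardiomyocyte markers fell, 2 of 7 endothelial markers rose and 3 fell, 3 of 5 tested activated fibroblast markers rose and 1 fell, and all 8 neutrophil and monocyte markers rose. The 3 listed atrial markers summed to 1150 to 1822 CPM against 80.5 to 296 CPM in sham, with 1 of the 2 tested called higher. The part of these shifts in the collagen values was not tested.

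From 4 to 24 h post-MI, 3 of the 26 collagens rose and 12 fell, against 37.2% and 26.7% of all genes. Sham hearts are not compared here, though their libraries enter the expression filter and the spread shared in the model. The median log2 fold change of the collagens was -0.54 against 0.10 for all genes. Col3a1 fell from 444, 323 and 353 CPM to 188, 127, 308 and 134 CPM (-1.06 ± 0.28, adjusted p = 0.0057), and Col1a2 from 173, 120 and 140 CPM to 86.8, 47.3, 109 and 47.1 CPM (-1.06 ± 0.27, adjusted p = 0.0049), both without overlap. Col14a1 had been at 32.4, 19.3 and 30.0 CPM at 4 h, Col4a3 at 7.82, 6.08 and 5.50 CPM and Col4a4 at 10.7, 7.61 and 8.67 CPM, all above every 24 h library. On the log2(CPM + 1) scale the largest falls were those of Col14a1 (-2.27 ± 0.26, adjusted p = 2.6e-05), Col4a4 (-2.10 ± 0.21, adjusted p = 1e-05) and Col4a3 (-1.96 ± 0.20, adjusted p = 1.2e-05), whereas by the ratio of means Col6a6 fell furthest, to 0.0689 ± 0.0563 (-1.90 ± 0.27, adjusted p = 0.00011). Col27a1 stood at 4.21, 4.12 and 4.30 CPM at 4 h and Col18a1 at 16.6, 9.43 and 13.4 CPM, the latter overlapping with 24 h. Col12a1 (2.06 ± 0.14, adjusted p = 8.8e-07), Col27a1 (1.03 ± 0.17, adjusted p = 0.00034) and Col18a1 (0.57 ± 0.22, adjusted p = 0.041) rose. Col18a1 lost its call without 24 h library C or G or 4 h library D or E. Col4a1 (0.26 ± 0.20, adjusted p = 0.28) and Col4a2 (0.35 ± 0.18, adjusted p = 0.11) were not called. As a sum, fibrillar collagens stood at 0.657 to 0.740 of type IV collagens in sham, at 0.734 to 0.741 at 4 h and at 0.261 to 0.473 at 24 h.

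**Figure D3:**
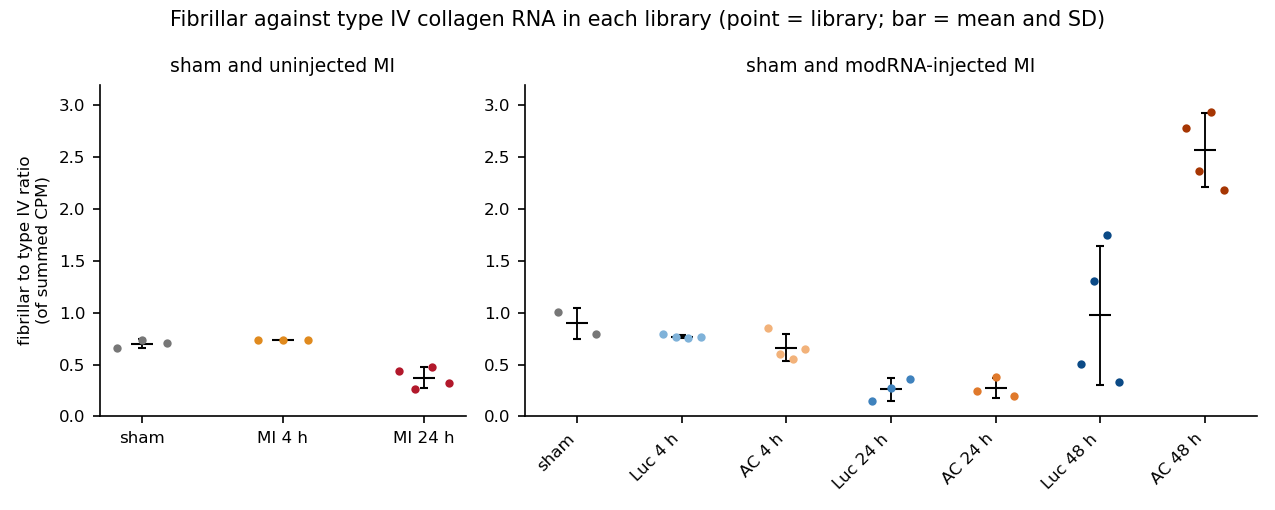
Ratio of the summed CPM of fibrillar to type IV collagen genes in each library (1 point per library, bars are mean and SD), for uninjected hearts on the left and modRNA-injected hearts on the right, on the same scale. All 24 h hearts lie below sham in both panels, and the 4 AC 48 h hearts, between 2.18 and 2.94, lie above every other library.

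The genes that modify, fold, trim and crosslink collagen chains were counted as lists by function. At 24 h post-MI, 10 of the 18 tested genes for hydroxylation, glycosylation and folding rose compared to sham and 2 fell, against 35.6% and 30.3% of all genes tested. The largest rises were those of P4hb, a subunit of prolyl 4-hydroxylase (log2 fold change 1.89 ± 0.12, adjusted p = 3.5e-07), Fkbp10, a collagen chaperone (1.60 ± 0.16, adjusted p = 7.6e-06), and Serpinh1, the chaperone HSP47 (1.24 ± 0.25, adjusted p = 0.0012). The 2 that fell were Colgalt2, a collagen galactosyltransferase (-1.73 ± 0.19, adjusted p = 1.3e-05), and Plod1, a lysyl hydroxylase (-0.40 ± 0.16, adjusted p = 0.047). Of the 12 genes for propeptide removal and crosslinking 6 rose and 3 fell. Lox, lysyl oxidase, rose 45.2 ± 21.3-fold (4.83 ± 0.19, adjusted p = 2.5e-08), Loxl4 7.12 ± 1.65-fold (2.25 ± 0.15, adjusted p = 5e-07) and Tll1, a procollagen protease, 15 ± 5.62-fold (1.83 ± 0.17, adjusted p = 5.1e-06). Adamts3 (-1.79 ± 0.17, adjusted p = 4.2e-06), Pcolce2 (-0.69 ± 0.16, adjusted p = 0.0025) and Pcolce (-0.46 ± 0.18, adjusted p = 0.037), which act on or enhance propeptide removal, fell. Of the 7 tested collagen receptors 2 rose, a share below that of all genes, namely Itgb1 (1.04 ± 0.12, adjusted p = 1.6e-05) and the leukocyte receptor Lair1 (0.94 ± 0.20, adjusted p = 0.0016), and 1 fell, the integrin chain Itga1 (-1.08 ± 0.23, adjusted p = 0.0014).

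In the modRNA experiment the Luc-injected hearts give the time course of MI with a control injection. All comparisons with sham share the same 2 sham libraries, whose collagen levels differed (Col4a1 at 169 and 283 CPM). At 4 h, none of the 26 collagens was called compared to sham, against 1.25% of all genes higher and 0.295% lower. An unadjusted p under 0.05 was found for 5 of 26, a share that was not counted over all genes. As many as 25 had higher means, the median log2 fold change was 0.46 against 0.02 for all genes, and in 12 of the 26 all Luc libraries lay above both sham libraries, as in 17.2% of all genes. With the compared libraries alone 1 collagen, Col5a3, was called (log2 fold change 1.04 ± 0.19, adjusted p = 0.010), and without sham library 2 there was also 1 call.

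Among the most expressed members at 4 h, Col1a1 measured 87.6, 62.9, 67.3 and 67.7 CPM in Luc hearts against 33.6 and 57.2 CPM in sham, and Col1a2 134, 98.3, 119 and 98.9 CPM against 72.1 and 92.5 CPM. Both lay above sham without overlap, whereas Col3a1, at 239.5, 191, 231.5 and 188.5 CPM against 168 and 207 CPM, overlapped. Col4a1 measured 396, 322, 376 and 319 CPM, above both sham hearts. Col4a2 (295, 223, 278 and 228 CPM against 134 and 229 CPM) and Col4a5 (21.35, 24.3, 22.0 and 20.4 CPM against 15.2 and 26.3 CPM) overlapped with sham. Col6a1 (131, 91.4, 116 and 91.25 CPM against 62.6 and 91.0 CPM), Col6a2 (122, 84.0, 104 and 86.5 CPM against 50.9 and 81.5 CPM) and Col15a1 (135, 117, 128.5 and 111 CPM against 68.8 and 110 CPM) lay above sham, by little for their lowest libraries. In these hearts 3 of 8 neutrophil and monocyte markers (sums 76.5 to 162 against 7.78 to 27.6 CPM) and 2 of 5 erythroid markers (1723 to 2581 against 196 to 647 CPM) were called higher, and no fibroblast marker was. Their part was not tested.

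At 24 h after Luc injection, 7 of 26 collagens rose and none fell compared to sham, against 25.3% and 8.79% of all genes. After median-ratio rescaling all genes split into 2294 higher and 2047 lower in place of 3172 and 1103, and the collagens into 6 higher and 1 lower. The type IV chains Col4a1 and Col4a2 had the largest log2 fold changes on the log2(CPM + 1) scale, while the low-expressed Col12a1 had the largest ratio of means. Col12a1 averaged 0.371 CPM in sham, 0.430 CPM in Luc 4 h and 0.797 CPM in AC 4 h hearts. It passed the filter of 1 CPM only through the later groups. Col4a1 measured 169 and 283 CPM in sham and 1017, 873 and 1077 CPM at 24 h, a 4.38 ± 1.63-fold rise (log2 fold change 2.17 ± 0.30, adjusted p = 1.7e-05). Col4a2 measured 134 and 229 CPM in sham and 724, 527 and 630 CPM at 24 h (1.83 ± 0.32, adjusted p = 0.00017). For both genes each 24 h library was above both sham libraries. Col18a1 (3.52 and 7.27 CPM in sham, 17.2, 14.6 and 23.2 CPM at 24 h) rose with a log2 fold change of 1.64 ± 0.26 (adjusted p = 7.5e-05). Col16a1, a fibril-associated collagen, rose by 1.55 ± 0.35 (adjusted p = 0.0018), Col20a1 of the same group by 1.25 ± 0.26 (adjusted p = 0.00082), Col12a1 by 1.18 ± 0.31 (adjusted p = 0.0058, 5.71 ± 2.23-fold, from 0.456 and 0.286 CPM to 2.48, 1.61 and 2.27 CPM) and Col4a4 by 0.84 ± 0.31 (adjusted p = 0.040). Col16a1 lost its call without sham library 1, and Col4a4 without that library or Luc 24 h library C or D.

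None of the 8 fibrillar collagens was called at this time, and Col3a1, at 58.9, 117 and 197 CPM against 168 and 207 CPM in sham, had a log2 fold change of -0.74 ± 0.46 (adjusted p = 0.21). Col1a1 measured 46.6, 74.3 and 144 CPM at 24 h and overlapped with sham, and Col1a2, at 95.4, 139 and 211 CPM, lay above both sham hearts (0.78 ± 0.36, adjusted p = 0.099). Col6a1 (69.55, 108 and 132 CPM), Col6a2 (57.4, 89.8 and 118 CPM), Col15a1 (30.4, 97.0 and 114 CPM) and Col4a5 (15.1, 16.3 and 14.3 CPM) overlapped with sham. Library A was the lowest of the 24 h group in all these genes but Col4a5. Unlike in the uninjected hearts, the sum of the cardiomyocyte markers was not lower at 24 h here (57100 to 72334 CPM against 49287 to 49882 CPM in sham). Of these 7 markers 1 was called higher and 1 lower. Col4a3 (0.53 ± 0.24, adjusted p = 0.086), Col4a4 and Col4a6 (0.36 ± 0.29, adjusted p = 0.34) were not called lower either. All 4 atrial markers were called higher (sums 362 to 603 against 60.7 to 117 CPM), as were 3 of 7 fibroblast markers (854 to 1054 against 636 to 674 CPM) and 6 of 8 neutrophil and monocyte markers (55.2 to 121 against 7.78 to 27.6 CPM). Of the 7 endothelial markers 1 was called higher and 1 lower (649 to 848 against 479 to 551 CPM). Of the 6 mural markers 2 were called higher and 1 lower (626 to 715 against 824 to 898 CPM). Their part in the collagen values was not tested. The experiments differ in injection and library series and were not tested against each other. Without the filter on low values 12 collagens were called higher. The added genes included Col13a1, Col6a5, Col2a1, Col9a2, Col9a3 and Col11a1, of which the latter 4 are known from cartilage and all 6 stood below 1 CPM on average. Col2a1 was at 0 in both sham libraries and at 0.219, 0.475 and 0.470 CPM at 24 h, and Col13a1 went from 0.130 and 0.539 CPM to 1.79, 1.82 and 2.35 CPM.

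At 48 h after Luc injection, 10 collagens were higher than in sham and 1 was lower, against 13.7% and 16.4% of all genes, and 4 of the 8 fibrillar collagens were now among the higher ones. Col1a1 measured 33.6 and 57.2 CPM in sham and 112, 179, 315 and 87.0 CPM in Luc libraries 1, 2, 4 and 3 (log2 fold change 1.78 ± 0.40, adjusted p = 0.0022). Col5a2 measured 17.5 and 18.0 CPM in sham and 50.3, 55.6, 83.5 and 36.6 CPM at 48 h (1.56 ± 0.30, adjusted p = 0.00057). Both were above sham in all 4 libraries, and libraries 2 and 4 were the highest. Col12a1 again had the largest rise, from 0.456 and 0.286 CPM to 5.73, 3.86, 6.36 and 5.37 CPM, or 14.4 ± 5.48-fold (2.19 ± 0.30, adjusted p = 1.5e-05). This gene passed the expression filter only through the later groups, where it is high. Col6a6 fell from 1.63 and 4.22 CPM to 0.438, 0.789, 1.19 and 0.517 CPM (-1.12 ± 0.35, adjusted p = 0.019). Col3a1 was not called (0.46 ± 0.43, adjusted p = 0.45). Without sham library 1 the count was 4 and Col1a1 was not called, without sham library 2 Col6a6 was not called, and in the fit of the compared libraries alone it was 6. Beside these values, all 8 neutrophil and monocyte markers were called higher at 48 h (sums 157 to 487 against 7.78 to 27.6 CPM), as were 4 of 6 activated fibroblast markers (275 to 481 against 243 to 278 CPM, with 1 lower) and 3 of 4 atrial markers (533 to 1169 against 60.7 to 117 CPM). Of the 7 cardiomyocyte markers 2 were lower (32900 to 44702 against 49287 to 49882 CPM). Their part was not tested.

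Side by side in time, type IV collagens were lower and fibrillar collagens higher at 48 h than at 24 h in Luc hearts. Of the 26, 8 rose and 9 fell from 24 to 48 h, against 9.32% and 32.6% of all genes. After median-ratio rescaling all genes split into 2003 higher and 2085 lower in place of 1170 and 4088, and the collagens into 9 higher and 6 lower. Of the 8 fibrillar collagens 5 rose and 1 fell, whereas of the 6 type IV chains none rose and 5 fell, with class medians of 0.98 and -0.85 against -0.25 for all genes. Col4a1 fell from 1017, 873 and 1077 CPM to 645, 347, 424 and 673 CPM without overlap (-0.97 ± 0.25, adjusted p = 0.0046). Col5a3, a type V chain, rose from 8.17, 4.53 and 5.88 CPM to 18.1, 23.0, 24.5 and 11.5 CPM (1.47 ± 0.35, adjusted p = 0.0021), and Col6a3, which forms microfibrils with Col6a1 and Col6a2, from 12.4, 13.4 and 13.0 CPM to 45.5, 44.0, 77.5 and 16.3 CPM (1.56 ± 0.45, adjusted p = 0.0086). Col4a4 fell from 3.57, 5.62 and 5.56 CPM to 2.01, 1.46, 1.41 and 2.85 CPM without overlap (-1.02 ± 0.26, adjusted p = 0.0037). Col14a1, at 12, 26 and 38 CPM at 24 h, was lower at 48 h with overlap (-1.12 ± 0.37, adjusted p = 0.018), and Col4a5, at 25.3, 32.8, 42.0 and 13.2 CPM at 48 h, was not called (0.74 ± 0.31, adjusted p = 0.054). Of the markers, 6 of 7 cardiomyocyte (sums 32900 to 44702 against 57100 to 72334 CPM) and 5 of 5 erythroid genes (147 to 305 against 398 to 945 CPM) were lower at 48 h than at 24 h. Of the fibroblast markers 3 of 7 were lower and 1 higher (597 to 820 against 854 to 1054 CPM), of the activated fibroblast markers 3 of 6 higher and 1 lower (275 to 481 against 366 to 378 CPM), and of the atrial markers 3 of 4 lower and 1 higher (533 to 1169 against 362 to 603 CPM). The neutrophil and monocyte markers were higher in 5 of 8 (157 to 487 against 55.2 to 121 CPM). Of the endothelial markers 2 of 7 were lower and none higher (353 to 586 against 649 to 848 CPM). Of the mural markers 2 of 6 were lower and none higher (424 to 577 against 626 to 715 CPM). Their part was not tested. Without Luc 48 h libraries 2 and 4 together, the count fell to 9, with 3 higher and 6 lower, and Col4a1 and Col6a3 were not called. From 4 to 24 h, 6 collagens rose and 2 fell, against 24.5% and 7.80% of all genes. The lower count was 5 after median-ratio rescaling, where all genes split into 1969 higher and 1789 lower in place of 3079 and 979, and also 5 with library weights and with the compared libraries alone. Col4a1 (1.48 ± 0.25, adjusted p = 0.00021) and Col4a2 (1.29 ± 0.26, adjusted p = 0.00098) rose, while Col5a3, at 26.2, 27.4, 27.5 and 28.4 CPM at 4 h (-2.01 ± 0.35, adjusted p = 0.00021), and Col6a3, at 35.8, 26.4, 36.4 and 25.2 CPM at 4 h (-1.17 ± 0.45, adjusted p = 0.049) fell, the latter close to the threshold and not called without any 1 of several libraries. Col12a1 stood at 0.3495, 0.281, 0.609 and 0.479 CPM at 4 h and rose to 24 h (1.12 ± 0.26, adjusted p = 0.0026). When libraries were rescaled by median ratio, the median of all genes moved from 0.16 to -0.01 for 24 h against sham, from 0.14 to -0.01 for 24 h against 4 h and from -0.25 to -0.03 for 48 h against 24 h, and no collagen call turned its direction.

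**Figure D4:**
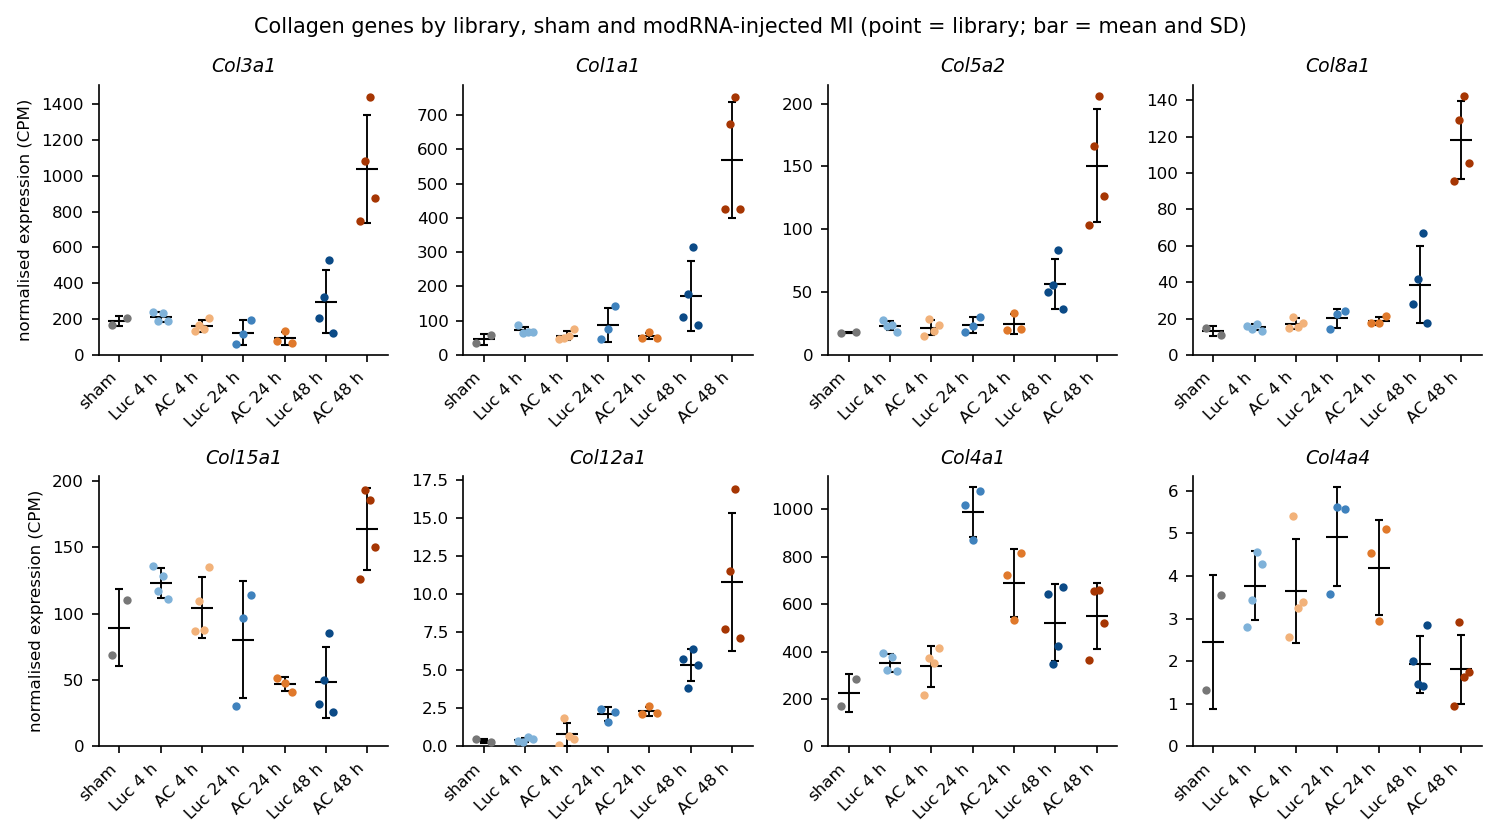
Normalised expression in CPM (vertical axes from 0) of 8 collagen genes in each library of the modRNA experiment, with 1 point per library and the mean and SD as bars, blue for Luc and orange to brown for AC. Col3a1, Col1a1, Col5a2, Col8a1 and Col12a1 are higher in the 4 AC 48 h hearts than in any other library, and Col4a1 is highest in the 3 Luc 24 h hearts. For Col15a1, Luc 4 h libraries 1 (135 CPM) and 3 (128.5 CPM) and AC 4 h library 4 (134.7 CPM) reach above the lowest AC 48 h heart (126 CPM).

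AC modRNA was then compared to Luc modRNA at the same time after MI. At 4 h no collagen was called, as were 0.00796% of all genes higher and 0% lower. No collagen had an unadjusted p under 0.05 there, and the medians were -0.22 for the collagens and 0.01 for all genes. At 24 h again no collagen was called, with 0.00796% of all genes higher and 0% lower, and 3 had an unadjusted p under 0.05. The collagen median was -0.30 against -0.03 for all genes. Library C of the AC 24 h group stood apart from its group, with Col5a3 at 25.6 CPM against 5.61 CPM in both others and Col6a3 at 27.2 CPM against 5.93 and 9.12 CPM. Without it, too, no collagen was called at 24 h.

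Among the most expressed members after AC, Col1a1 measured 45.9, 49.9, 54.0 and 75.2 CPM at 4 h and 49.5, 65.8 and 48.7 CPM at 24 h, and Col1a2 83.6, 79.8, 77.4 and 111 CPM and 117, 87.4 and 101 CPM. Col3a1 measured 133, 167, 143 and 205 CPM at 4 h and 76.3, 134 and 66.5 CPM at 24 h. For all 3 genes the AC and Luc values overlapped at both times. Col4a1 measured 217, 372, 350 and 416 CPM at 4 h and 725, 534 and 815 CPM at 24 h, where each AC library lay below each Luc library without a call (-0.53 ± 0.27, adjusted p = 0.99). Col4a2 (141, 237, 255 and 297 CPM at 4 h, 461, 457 and 546 CPM at 24 h) and Col4a5 (15.5, 32.8, 21.0 and 23.4 CPM at 4 h, 13.0, 28.2 and 13.5 CPM at 24 h) overlapped with Luc. So did Col6a1 (79.2, 83.8, 74.6 and 110 CPM, then 82.3, 73.1 and 80.9 CPM), Col6a2 (78.0, 74.0, 71.9 and 111 CPM, then 60.6, 71.0 and 60.5 CPM) and Col15a1 (86.6, 109, 87.3 and 135 CPM, then 51.4, 47.8 and 41.0 CPM). Library 4 was the highest AC library at 4 h for each of these genes but Col4a5.

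At 48 h, 15 of the 26 collagens were higher after AC than after Luc and none was lower, that is 57.7%, against 12.1% of all genes higher and 3.27% lower. These were 6 of the 8 fibrillar collagens, none of the 6 type IV chains and 9 of the 12 others, with median log2 fold changes of 1.36, 0.04 and 0.86, against 0.14 for all genes. In 12 of the 26, and in 15.5% of all genes, all 4 AC libraries lay above all 4 Luc libraries. The collagens together took 0.553 to 1.03% of the summed CPM after AC and 0.315 to 0.503% after Luc.

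Col3a1 measured 749, 1082, 1441 and 876 CPM in AC libraries 1, 2, 4 and 5 and 209, 325, 530 and 122 CPM in Luc libraries 1, 2, 4 and 3. All AC values were above the highest Luc value, by 3.50 ± 2.32-fold of the means (log2 fold change 1.96 ± 0.35, adjusted p = 0.00080). Col1a1 measured 426, 673, 753 and 426 CPM after AC against 112, 179, 315 and 87.0 CPM after Luc (1.84 ± 0.33, adjusted p = 0.00077), and Col1a2 measured 348, 593, 719 and 400 CPM against 131, 169, 300 and 94.4 CPM (1.64 ± 0.28, adjusted p = 0.00051). Neither type I chain overlapped between the groups. Per length, Col3a1 stood at 106 ± 30.8 CPM per kb after AC (n = 4), followed by Col1a1 at 86.7 ± 25.7, Col4a1 at 73.6 ± 18.7, Col4a2 at 55.1 ± 14.5 and Col1a2 at 41.4 ± 13.8, each within the SD of its neighbor. After Luc, Col4a1 stood first at 69.9 ± 21.6 CPM per kb, before Col4a2 at 56.0 ± 17.7, Col3a1 at 30.2 ± 18.0 and Col1a1 at 26.4 ± 15.6. The fibrillar to type IV ratio of summed CPM was 2.18 to 2.94 in AC and 0.335 to 1.75 in Luc libraries.

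The type V chains moved with types I and III. Col5a1 measured 102, 158, 180 and 109 CPM after AC and 48.4, 52.4, 92.7 and 34.0 CPM after Luc (log2 fold change 1.31 ± 0.28, adjusted p = 0.0032). Col5a2 measured 103, 167, 206 and 126 CPM against 50.3, 55.6, 83.5 and 36.6 CPM (1.41 ± 0.25, adjusted p = 0.00059), and Col5a3 31.4, 42.6, 50.3 and 34.4 CPM against 18.1, 23.0, 24.5 and 11.5 CPM (1.03 ± 0.32, adjusted p = 0.032). None of these groups overlapped. The fibrillar genes not called were Col27a1 (0.72 ± 0.27, adjusted p = 0.077) and Col11a2 (0.15 ± 0.20, adjusted p = 0.65).

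Among the other collagens, Col8a1, a short-chain collagen of vessel walls and matrix, measured 95.8, 129, 142 and 106 CPM after AC against 28.2, 41.8, 66.8 and 17.6 CPM after Luc (1.73 ± 0.26, adjusted p = 0.00016). Col15a1 measured 126, 193, 186 and 150 CPM against 31.9, 49.8, 85.5 and 25.6 CPM (1.87 ± 0.33, adjusted p = 0.00063). Neither overlapped. Col18a1, at 18.1, 29.2, 29.5 and 23.1 CPM against 14.3, 10.1, 16.3 and 10.7 CPM (0.91 ± 0.20, adjusted p = 0.0050), and Col12a1, at 7.69, 11.5, 16.9 and 7.08 CPM against 5.73, 3.86, 6.36 and 5.37 CPM (0.84 ± 0.24, adjusted p = 0.022), were also fully separated. Col14a1 measured 16.2, 35.8, 35.2 and 25.1 CPM against 7.30, 8.97, 18.7 and 7.93 CPM (1.34 ± 0.34, adjusted p = 0.012), and Col16a1 9.06, 14.8, 14.2 and 10.3 CPM against 3.80, 6.13, 10.2 and 5.11 CPM (0.89 ± 0.27, adjusted p = 0.030). In these last genes Luc library 4 lay within the AC range.

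Of the 4 tested type VI chains 3 were higher. Col6a3 measured 73.7, 140, 144 and 75.9 CPM after AC against 45.5, 44.0, 77.5 and 16.3 CPM after Luc (1.34 ± 0.42, adjusted p = 0.032), with Luc library 4 inside the AC range. Col6a1 measured 95.3, 138, 141 and 113 CPM against 85.5, 65.2, 84.3 and 73.9 CPM (0.64 ± 0.19, adjusted p = 0.023), and Col6a2 96.7, 129, 126 and 109 CPM against 79.9, 59.8, 86.9 and 59.8 CPM (0.69 ± 0.20, adjusted p = 0.023), both without overlap.

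Type IV chains showed no called difference at 48 h. Col4a1 measured 364, 655, 658 and 521 CPM after AC and 645, 347, 424 and 673 CPM after Luc (log2 fold change 0.09 ± 0.24, adjusted p = 0.83), and Col4a2 237, 450, 425 and 347 CPM against 460, 239, 306 and 478 CPM (-0.01 ± 0.24, adjusted p = 0.99). The groups overlapped, and Luc libraries 1 and 3, the lowest of the Luc group for Col3a1, were its highest for Col4a1. Col4a5, at 32.4, 43.0, 55.5 and 36.4 CPM after AC against 25.3, 32.8, 42.0 and 13.2 CPM after Luc, had a log2 fold change of 0.63 ± 0.28 (adjusted p = 0.14).

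**Figure D5:**
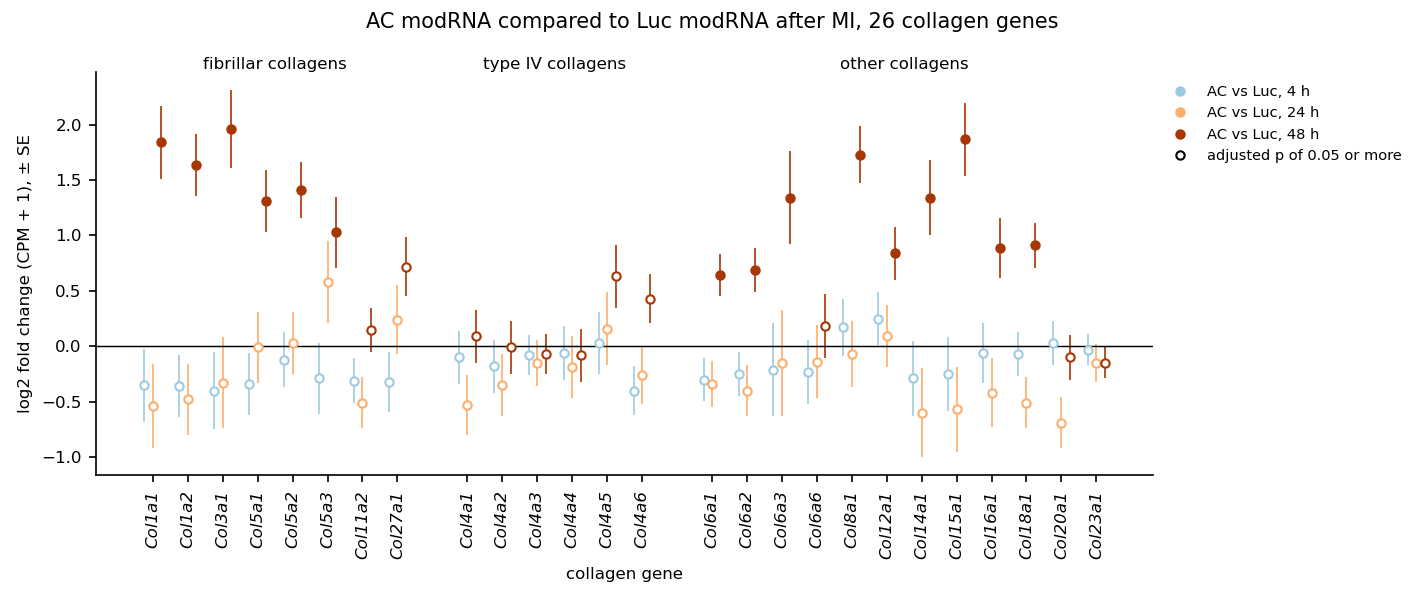
Log2 fold change of CPM + 1 (± SE from limma) of AC against Luc modRNA at 4 h (light blue), 24 h (light orange) and 48 h (brown) post-MI for the 26 tested collagen genes, grouped by class. Filled points passed an adjusted p of 0.05: none at 4 or 24 h, and at 48 h 6 fibrillar, no type IV and 9 other collagens, all above 0.

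The count at 48 h rests in part on Luc libraries 1 and 3, which had the lowest Col3a1, Col1a1 and Col8a1 values. Without both, 3 collagens were called, namely Col8a1 (log2 fold change 1.13 ± 0.22, adjusted p = 0.0087), Col1a2 (1.13 ± 0.30, adjusted p = 0.042) and Col5a2 (1.08 ± 0.28, adjusted p = 0.040), while Col3a1 stood at 1.28 with an adjusted p of 0.056. Without Luc libraries 2 and 4, 15 were called. When AC library 2, AC library 4 or Luc library 3 alone was left out, 9 were called each time. Median-ratio rescaling took the median of all genes from 0.14 to 0.00, gave 9 collagens (Col1a1, Col1a2, Col3a1, Col5a1, Col5a2, Col8a1, Col14a1, Col15a1 and Col18a1), and changed the split over all genes from 1516 higher and 410 lower to 823 and 802. Those 9 were called in each setting run other than the omission of Luc libraries 1 and 3, where only the 3 above were.

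The AC effect itself was compared between times. It was larger at 48 h than at 4 h for 8 collagens and smaller for none, against 2.88% and 0.470% of all genes. These were Col3a1 (difference in log2 fold change 2.36 ± 0.50, adjusted p = 0.012), Col1a1 (2.19 ± 0.47, adjusted p = 0.012), Col15a1 (2.13 ± 0.46, adjusted p = 0.014), Col1a2 (1.99 ± 0.40, adjusted p = 0.0095), Col5a1, Col8a1, Col5a2 and Col6a1. Against 24 h it was larger for 8 collagens and smaller for none, with 2.23% and 0.335% of all genes as background, led by Col15a1 (2.45 ± 0.50, adjusted p = 0.012) and Col1a1 (2.38 ± 0.50, adjusted p = 0.014). Both comparisons use the same 48 h libraries. No type IV chain was called in either. Between 24 and 4 h the effect differed for no collagen, with 0% and 0.00796% of all genes higher and lower, and 1 collagen had an unadjusted p under 0.05. The count of the 48 h against 4 h comparison was 5 without AC 48 h library 4 and 14 without Luc 48 h library 4, and that of 48 h against 24 h was 3 without Luc 24 h library D, 5 without AC 24 h library D, Luc 24 h library C, AC 48 h library 2 or 4, or Luc 48 h library 1, and 1, Col18a1, with these 4 groups alone.

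The genes acting on collagen chains moved alongside at 48 h. Of the 18 genes for modification and folding 9 were higher after AC and none lower, against 12.1% and 3.27% of all genes, with Serpinh1 first (log2 fold change 1.58 ± 0.29, adjusted p = 0.00096). The list counts given here are those of the main fit. They were not recounted after median-ratio rescaling, where all genes split into 823 higher and 802 lower. Of the 11 genes for propeptide removal and crosslinking 6 were higher and none lower, led by Loxl2 (1.29 ± 0.20, adjusted p = 0.00020) and Loxl3 (1.01 ± 0.18, adjusted p = 0.00057). Lox, already up 42.0 ± 19.9-fold in Luc hearts at 48 h compared to sham (4.58 ± 0.30, adjusted p = 2.5e-09), did not pass between AC and Luc (0.43 ± 0.24, adjusted p = 0.24). Of the 7 collagen receptors 4 were higher, namely Lair1 (1.40 ± 0.25, adjusted p = 0.00066), the fibroblast integrin chain Itga11 (1.24 ± 0.24, adjusted p = 0.0014), the endocytic receptor Mrc2 (1.19 ± 0.23, adjusted p = 0.0013) and Itga1 (0.89 ± 0.29, adjusted p = 0.038).

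Beside these values, the 6 activated fibroblast markers summed to 845 to 1318 CPM after AC and 275 to 481 CPM after Luc at 48 h, with 4 of 6 called higher. The 7 fibroblast markers summed to 650 to 754 against 597 to 820 CPM, with 2 higher and 1 lower. The 7 cardiomyocyte markers summed to 24706 to 30321 CPM after AC and 32900 to 44702 CPM after Luc, with 2 of 7 lower. None of the 7 endothelial or 6 mural markers was called. The 4 atrial markers summed to 1227 to 2966 CPM after AC and 533 to 1169 CPM after Luc, with 1 of 4 called higher. Their part in the collagen differences was not tested.

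The sequence before the start was compared between the collagen classes, whatever their response, and all promoters. The RefSeq (GRCm38.p6) promoter set used here held 37 promoters for 34 of the 43 collagen genes. Col1a1, Col2a1, Col4a3, Col5a2, Col9a3, Col12a1, Col14a1, Col22a1 and Col26a1 were not in it and are absent from this comparison. The 250 bases before each start were searched on both strands for the CCAAT box, for TATAAA as a TATA box and for GGGCGG as a GC box. None of these motifs contains another. GGGCGG occurred in 56.8% of the collagen promoters and in 32.7% of all 32851 promoters, CCAAT in 32.4% and 33.8%, and TATAAA in 13.5% and 12.4%. The median GC content was 59.2% for collagens and 52.4% for all. By class GGGCGG occurred in 6 of 8 fibrillar, 3 of 5 type IV and 12 of 24 other promoters. The 120 bases before the start are shown for 4 genes with large AC differences at 48 h, with motif matches in capitals, each read 5′ to 3′ on the strand of its gene.
Col1a2, chr6:4505498-4505617, plus strand: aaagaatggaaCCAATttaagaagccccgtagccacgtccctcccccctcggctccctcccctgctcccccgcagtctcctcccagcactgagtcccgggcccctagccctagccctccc
Col3a1, chr1:45311418-45311537, plus strand: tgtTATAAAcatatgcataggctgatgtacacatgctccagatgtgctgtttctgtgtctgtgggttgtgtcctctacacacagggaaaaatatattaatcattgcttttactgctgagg
Col8a1, chr16:57754738-57754857, minus strand: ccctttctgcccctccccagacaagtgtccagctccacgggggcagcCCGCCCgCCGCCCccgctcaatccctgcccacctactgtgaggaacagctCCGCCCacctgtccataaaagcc
Col15a1, chr4:47207892-47208011, plus strand: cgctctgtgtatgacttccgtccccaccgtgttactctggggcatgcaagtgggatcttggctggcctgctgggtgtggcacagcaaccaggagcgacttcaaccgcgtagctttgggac
The Col1a2 window holds 1 CCAAT, the Col3a1 window 1 TATAAA, the Col8a1 window 3 GGGCGG matches, all 3 on the opposite strand, and the Col15a1 window 0 matches. A match is a description of letters, not of a factor at work.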

How the data were processed

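LV RNA was measured in 10 uninjected and 24 modRNA-experiment libraries. For the first table the authors used STAR for alignment (mm10), quantified RefSeq genes by the expectation-maximization method of Partek and normalized by TMM, and the deposited values are CPM. For the second table the tools are not given in the sources used here (mm10 per the labels). Its lowest deposited CPM value is exactly 1 in every library, so 1 was subtracted. Groups followed the labels. Genes averaging 1 CPM or more (12487 and 12555) were tested with limma 3.58.1 in R 4.3.3 (trended eBayes) on log2(CPM + 1), in 1 model per table, two-sided, with Benjamini-Hochberg adjustment over all genes. On this scale changes of low genes are understated. The filter used the mean over all libraries of a table, so a gene low in some groups could pass it through the others. Folds are ratios of mean CPM with SDs propagated. Levels per length used exon unions of GENCODE M21, an annotation of the same mouse assembly, and gene positions were those given with the deposited values. Figures used Python 3.11.15. The limma script was tested on simulated data. Values per library are given for the 3 highest members of each class, the 3 largest called changes each way in comparisons with sham or between times, and every member called for AC against Luc. Beyond this rule, Col4a3, Col4a6 and Col5a2 at 24 h post-MI and the genes below 1 CPM were added after their values were seen. The members, lists and tests were chosen with earlier results of these data known. Alternatives were a pseudocount of 0.1, no filter, the compared groups alone, median-ratio rescaling, library weights, a replicate block and each library left out. The omission of pairs of Luc 48 h libraries was added after the data were seen.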

Additional observations from a re-analysis of the deposited data

Results flagged for a closer look

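The AC effect differed between time points by the test of the difference itself. Compared to 4 h it was larger at 48 h, on the log2 scale, by 2.36 for Col3a1, 2.19 for Col1a1, 2.13 for Col15a1, 1.99 for Col1a2, 1.65 for Col5a1, 1.56 for Col8a1, 1.53 for Col5a2 and 0.94 for Col6a1. Compared to 24 h it was larger by 2.45 for Col15a1, 2.38 for Col1a1, 2.29 for Col3a1, 2.11 for Col1a2, 1.94 for Col14a1, 1.80 for Col8a1, 1.42 for Col18a1 and 1.38 for Col5a2.

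Single libraries of the groups of 4 were also compared with their group, for collagen genes averaging 10 CPM or more. In the second table Col14a1 stood at 18.69 CPM in Luc 48 h library 4, where the others lay between 7.299 and 8.968 CPM, and Col6a2 at 111 CPM in AC 4 h library 4, where the others lay between 71.94 and 78.04 CPM. These were 2 of 64 such comparisons in that table and none of 16 in the first, where chance flags about 1 in 20.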

How the results depend on the processing

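Counts below are collagen genes called. Calls over all genes were counted only in the main fit and after median-ratio rescaling, and never for unadjusted p. The other counts therefore have no background share. For MI 4 h against sham the count of 0 became 9 with the compared groups alone and 17 with library weights. For Luc 4 h against sham it became 1 with the compared groups alone, and 0 to 1 with a library left out. For Luc 24 h it became 12 against sham and 14 against 4 h without the filter. For Luc 48 h against sham (11) it was 6 with the compared groups alone, 5 with library weights and 4 to 12 with a library left out. For Luc 48 h against 24 h (17) it was 9 without Luc libraries 2 and 4. For AC against Luc at 48 h (15) it was 9 after rescaling, 3 without Luc libraries 1 and 3, and 9 to 17 with a library left out. The difference of the AC effect (8 each) became 15 with library weights and 5 to 14 with a library left out against 4 h, and 1 with the compared groups alone and 3 to 12 with a library left out against 24 h. The causes were not tested.

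In none of the compared pairs of groups with 2 or more shared numbers did all same-numbered libraries deviate together with correlations above 0.1 (for AC and Luc at 48 h the correlations were 0.19, -0.21 and 0.20). They did for sham against AC at 4 h (0.43 and 0.33) and 48 h (0.42 and 0.50), groups that were not compared. No label ties a number to a shared mouse or day, so the libraries were not treated as pairs. With the replicate block AC against Luc at 48 h gave 10, and no count moved beyond 1.5 times. No paired analysis was possible for Luc 24 h against sham, 4 h or 48 h because these share no numbers. Of 1722 alternative values of single genes 1551 stayed on their side of the threshold, 122 lost and 49 gained a call, and none reversed.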

Other observations

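The 17 collagen genes of the modRNA experiment that were not tested had means of 0.0298 to 0.778 CPM, and 8 of them were listed at 0 in some library. Col6a5, a type VI chain, stood at 0.163 and 0 CPM in sham, 1.68, 1.30 and 2.04 CPM in Luc 24 h hearts and 0.995, 0.551 and 1.72 CPM in AC 24 h hearts, and Col11a1 at 0 in both sham hearts and 0.261, 0.217, 0.786 and 0.428 CPM in AC 48 h hearts. In AC 4 h library 2, Col6a3 stood at 56.3 CPM against 17.8 to 24.9 CPM in its group, and Col12a1 at 1.90 CPM against 0.126 to 0.691 CPM.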
